A study of Mus musculus with 2 samples.

Results

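This account concerns the 10 genes that carry the leukaemia inhibitory factor (LIF) signal in mouse embryonic stem (ES) cells: the cytokine Lif, the receptor chains Lifr and Il6st, the kinases Jak1 and Jak2, the transcription factor Stat3, the feedback inhibitors Socs1 and Socs3, and the serine/threonine kinases Pim1 and Pim3. They were chosen by gene symbol for their place in the pathway, though with earlier results of these data known. All 10 were found among the 28592 genes of the table. The series holds 1 group of 2 replicates, E14TG2a cells (written E14TG2 in another label) in the ground state, kept in 2i/LIF, a medium with inhibitors of MEK and GSK3 and with added LIF. The line carries no pathway mutation or transgene that the labels name, it is a single cell line, and no untreated or LIF-free sample was analysed here. Total RNA was depleted of ribosomal RNA and sequenced with strand kept, and each gene has 1 FPKM value per replicate, a fragment count scaled to transcript length and to the mapped fragments of the library.

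LIF binds LIFR, which pairs with gp130, the product of Il6st. The receptor-bound Janus kinases (JAKs) then phosphorylate STAT3, which enters the nucleus and activates genes that keep mouse ES cells undifferentiated. Among its targets are inhibitors of the SOCS family, which bind the receptor or the kinases and dampen the signal, and the PIM kinases, which promote survival and growth.

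The 10 genes differ in the sequence before their start sites, among other things in the number of CG dinucleotides. The stretches shown are the 80 bases directly before the annotated start (RefSeq, GRCm38.p6, 5′ to 3′ on the gene's strand), for the ligand, its shared receptor chain, a kinase that signals from it and a target (Pim1), with each CG in capitals. They run over chr11:4257488-4257567, chr13:112463990-112464069, chr19:29251723-29251802 and chr17:29490705-29490784, all on the plus strand.
Lif: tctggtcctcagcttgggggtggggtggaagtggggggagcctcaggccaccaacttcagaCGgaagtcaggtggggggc
Il6st: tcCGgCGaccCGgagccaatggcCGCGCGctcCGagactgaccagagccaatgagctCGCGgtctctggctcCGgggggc
Jak2: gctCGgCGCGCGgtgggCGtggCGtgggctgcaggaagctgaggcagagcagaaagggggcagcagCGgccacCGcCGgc
Pim1: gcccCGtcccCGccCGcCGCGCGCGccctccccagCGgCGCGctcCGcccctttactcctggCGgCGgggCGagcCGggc
The stretch of Lif holds 1 CG, against 10 for Il6st, 9 for Jak2 and 15 for Pim1. Of the genes not shown, Stat3 and Socs1 hold 4 each, Jak1 11, Lifr 12, and Socs3 and Pim3 13 each.

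Each gene has 1 or 2 RefSeq promoter windows, which run from 250 bases before to 50 after a start, 12 windows for the 10 genes in all. The window of Lif had 7 CG dinucleotides, the median over the 32851 windows of all genes. The windows with the most CG were the first ones of Lifr with 53, of Pim1 with 42, and those of Jak2 with 44 and Pim3 with 40. The second windows of Lifr and Pim1, further into the genes, had only 4 and 5. The first window of Lifr (chr15:7129322-7129621) also lies inside the longer RefSeq span of the gene, which begins at 7090610. The stretch of Lifr counted above lies within that window. The GC content of the 12 windows ran from 49.0% to 81.3%, with a median of 66.5% against 52.7% over all windows. Pim3 and Pim1, the genes with the most RNA, and Jak2, one of those with the least, all had 40 CG or more in their first window. Socs1 and Lif, the lowest by RNA, had 18 and 7. The remaining windows held 33 for Il6st, 31 for Socs3, 29 for Jak1 and 15 for Stat3. A relation of CG number to RNA level was not tested.

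The values in these cells spanned 38.1-fold, from Socs1 with a mean FPKM of 1.04 to Pim3 with 39.6. From high to low the order was Pim3, Pim1, Il6st, Stat3, Lifr, Socs3, Jak1, Jak2, Lif and Socs1. In 8 of the 9 steps between neighbours the replicate values lay apart, and only Pim1 and Il6st overlapped. Detection here means that neither replicate lies under an FPKM of 1. By that rule 9 of the 10 genes were detected, against 39.4% of all genes in the table and 50.6% of RefSeq protein-coding genes, the class of all 10. The exception was Socs1. Those 2 shares are also the background for the counts of detected genes given below. The median of the 10 genes was 15.7, against 0.233 over all genes in the table and 1.22 over RefSeq protein-coding genes. Of the 10, 5 lay above the median of detected genes (12.7). No test was run on these differences, because the series compares no conditions and an exact test over 2 libraries could not reach significance. The comparisons are of values in each replicate, and ranks are by mean. The labels do not tell separate cultures from repeat libraries, and the replicate spread may thus be purely technical. In bulk RNA, fewer cells that express a gene and less RNA per cell cannot be told apart.

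**Figure D1:**
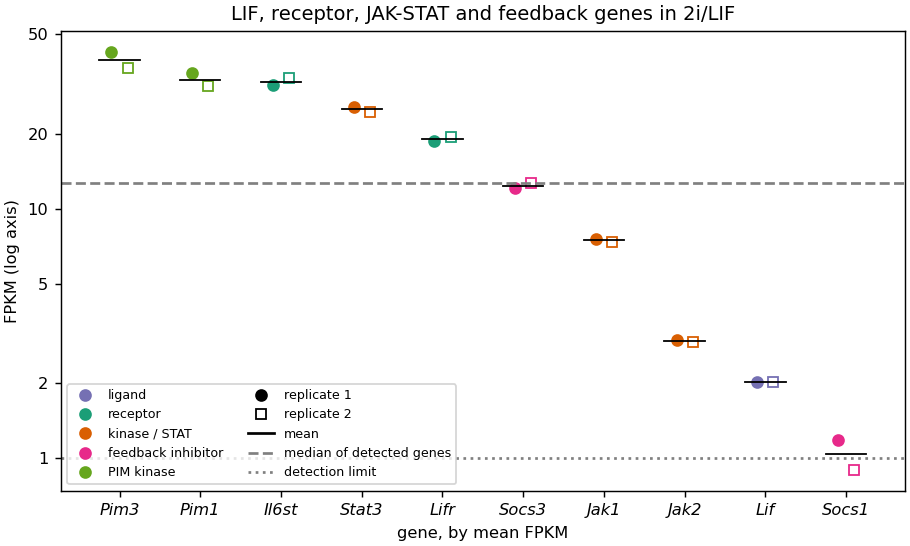
FPKM (log axis) of the 10 genes in replicate 1 (filled circles) and replicate 2 (open squares), ordered by mean (black bar) and coloured by role; the dashed line is the median of detected genes, 12.7, and the dotted line the detection limit of 1. Pim3, Pim1, Il6st, Stat3 and Lifr lie above the dashed line in both replicates, and Socs1 straddles the detection limit.

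The cells had a low level of the ligand's own RNA. Lif (ENSMUSG00000034394.13, chromosome 11, 4257568 to 4272514) was at 2.02 in replicate 1 and 2.03 in replicate 2, 2.02 ± 0.00275 (SD, n = 2). Only 9.41% of detected genes had a lower mean. Of the 9 cytokines of the interleukin-6 family, which share gp130, 4 were detected and Lif ranked 3 from the top. The highest was Osm, which encodes oncostatin M and lies, like Lif, on chromosome 11 (4236785 to 4241026). Osm was at 12.5 in both replicates and its FPKM was 6.20 and 6.15 times that of Lif. Ctf1, encoding cardiotrophin 1, stood at 2.53 and 2.17, close to Lif, and Cntf, encoding ciliary neurotrophic factor, at 1.10 and 1.12. At the low end, Clcf1 was at 0.0317 and 0.0474, and Il27 at 0.0639 in replicate 1 and listed at 0 in replicate 2.

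Both chains of the LIF receptor were well above their relatives. Il6st (ENSMUSG00000021756.11, chromosome 13, 112464070 to 112506860), the signalling chain shared by the whole cytokine family, was at 31.4 and 33.3. Lifr (ENSMUSG00000054263.10, chromosome 15, 7090610 to 7197489), the chain that binds LIF, was at 18.7 and 19.3. Il6st thus exceeded Lifr in both replicates, 1.68-fold and 1.72-fold, a difference of 0.74 ± 0.023 in log2(FPKM + 1) (SD, n = 2). Together they made up most of the summed FPKM of the 7 receptor genes of this family compared, Il6st 56.1% and 56.2% and Lifr 33.3% and 32.6%. Receptor RNA also exceeded ligand RNA, with Lifr 9.23 and 9.54 times as high as Lif.

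The other receptor genes of the family were low. Il6ra, the interleukin-6 binding chain, was at 3.32 and 3.58, and Il11ra1, its counterpart for interleukin-11, at 2.34 and 2.51. These were the only others detected among the 7. Il27ra was at 0.127 and 0.254, and Cntfr, the ciliary neurotrophic factor receptor, at 0.126 and 0.112. Osmr, the chain that pairs with gp130 in the specific oncostatin M receptor, was at 0.0312 and 0.120. Osmr was the lowest by mean, but its range overlapped that of Cntfr, which was the lower of the pair in replicate 2.

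**Figure D2:**
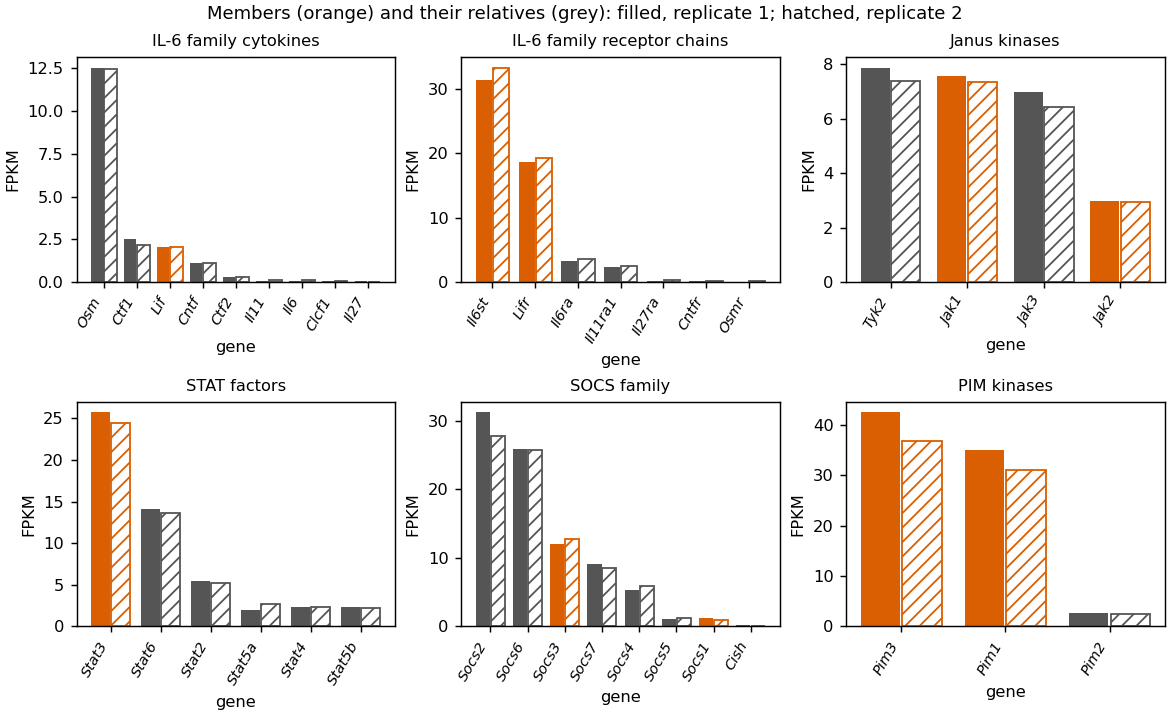
FPKM (linear axes, each starting at 0) of the 10 genes (orange) and the other genes of their families (grey), with replicate 1 filled and replicate 2 hatched. Il6st, Stat3 and Pim3 are the highest of their families, while Jak2 is the lowest Janus kinase, Socs1 is next to last of the SOCS genes by mean and in replicate 2, but above Socs5 in replicate 1, and Lif is below Osm in both.

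The kinases that dock on the receptor were lower than the receptor chains. Jak1 (ENSMUSG00000028530.13, chromosome 4, 101151974 to 101265282), the main kinase partner of gp130, was at 7.57 and 7.37. Jak2 (ENSMUSG00000024789.11, chromosome 19, 29251803 to 29313095), which serves many hormone and cytokine receptors, was at 2.98 and 2.93. Jak1 was 2.54 and 2.51 times as high as Jak2, a difference of 1.10 ± 0.012 in log2(FPKM + 1) (SD, n = 2). All 4 Janus kinase genes were detected. Tyk2, which also binds gp130, was at 7.87 and 7.38. Its range overlapped that of Jak1. Jak3, the partner of the common gamma chain and known mainly from lymphocytes, was at 6.97 and 6.42, or 27.4% and 26.6% of the family's summed FPKM. Jak2 contributed the least, 11.7% and 12.2%. RefSeq places Insl3 within the last part of Jak3 on the same strand, and Insl3 was at 0.271 in replicate 1 and listed at 0 in replicate 2.

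Stat3 was the highest of 6 STAT genes compared. Stat3 (ENSMUSG00000004040.15, chromosome 11, 100886806 to 100939594), the factor that carries the LIF signal to the nucleus, was at 25.7 and 24.4. It made up 49.4% and 48.4% of the summed FPKM of the 6. The next was Stat6, the interleukin-4 responsive factor, at 14.1 and 13.6. The FPKM of Stat3 was 1.82 and 1.80 times that of Stat6. Stat2, which serves interferon signalling, stood at 5.45 and 5.24. The other three were near each other, Stat4 at 2.36 and 2.28, Stat5a at 2.04 and 2.70, and Stat5b at 2.37 and 2.21, and their ranges overlapped. Stat3 also stood 3.40 and 3.31 times above Jak1.

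Of the feedback inhibitors, Socs3 was well expressed and Socs1 was at the edge of detection. Socs3 (ENSMUSG00000053113.3, chromosome 11, 117966079 to 117970336), which binds gp130 and blocks its JAKs, was at 12.1 and 12.7. Socs1 (ENSMUSG00000038037.4, chromosome 16, 10783808 to 10785536), which inhibits JAKs directly and restrains interferon signalling, was at 1.18 and 0.898. The FPKM of Socs3 was 10.2 and 14.1 times that of Socs1. The difference was 2.72 ± 0.19 in log2(FPKM + 1) (SD, n = 2), with the widest SD of the 5 gene pairs compared in this way.

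Neither was the leading SOCS gene. Socs2, an inhibitor of growth hormone signalling, was at 31.2 and 27.8, which is 2.58 and 2.19 times Socs3. Socs6, which acts on receptor tyrosine kinases, was at 25.9 and 25.8. The remaining family members were Socs7 at 9.15 and 8.49, Socs4 at 5.36 and 5.90, Socs5 at 1.10 and 1.22, and Cish at 0.158 and 0.0751. By mean Socs3 ranked 3 and Socs1 7 of the 8 genes, although Socs1 exceeded Socs5 in replicate 1, and Socs1 made up 1.37% and 1.08% of their summed FPKM. In all, 6 of the 8 were detected.

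The PIM kinases were the highest of the 10 genes. Pim3 (ENSMUSG00000035828.10, chromosome 15, 88862194 to 88865726) was at 42.5 and 36.8, and Pim1 (ENSMUSG00000024014.7, chromosome 17, 29490785 to 29496111) at 35.0 and 30.9. Pim3 was higher in each replicate, 1.21-fold and 1.19-fold, although its lower value lay only just above the higher one of Pim1. The difference was 0.26 ± 0.019 in log2(FPKM + 1) (SD, n = 2). The third kinase, Pim2, was at 2.60 and 2.46, so that Pim1 was 13.5 and 12.6 times as high, and Pim3 was 16.3 and 15.0 times as high. Among detected genes, 77.5% had a lower mean than Pim3 and 73.6% a lower mean than Pim1.

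**Figure D3:**
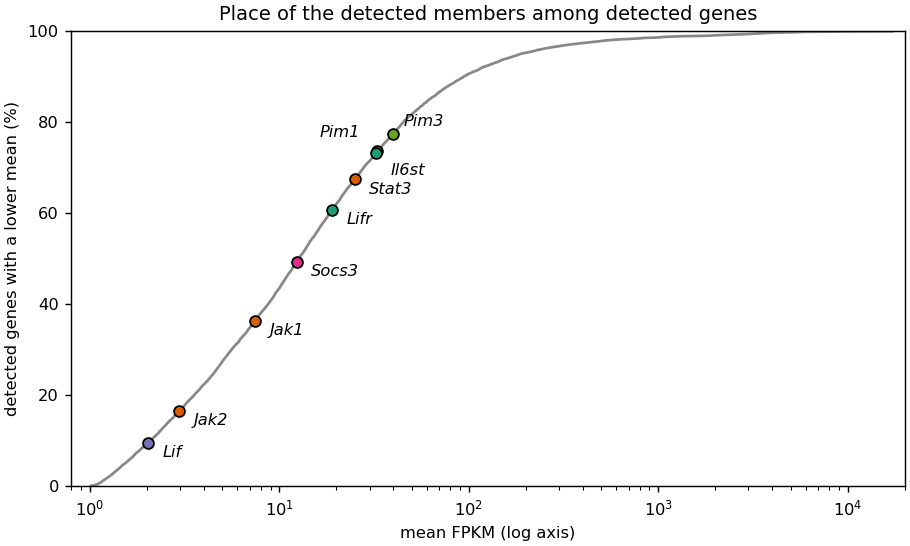
Share of detected genes with a lower mean FPKM (vertical axis, %) against mean FPKM (log axis), with the 9 detected genes of the set marked on the curve and coloured by role as in the plot of values by replicate. They spread from 9.41% for Lif to 77.5% for Pim3, with Socs3 close to the middle at 49.3%.

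Some of these genes share their place with others on the RefSeq map. The start of Pim1 overlaps by 760 bases the lncRNA Gm26885 on the opposite strand (0.491 and 0.473), and the end of Jak1 overlaps by 397 bases Raver2 on the opposite strand (1.01 and 1.06). The start of Stat3 lies within the lncRNA Gm46295 on the opposite strand. The start of Pim3 lies within the end of the predicted coding gene Gm33049 on the same strand. No values were found under the symbols Gm46295 and Gm33049. Whether strand was used in quantification is not given in the sources used here. Reads in the stretches of Pim1, Jak1 and Stat3 could thus have gone to either gene. In the stretch of Pim3 strand could not part the reads, because both genes lie on the same strand. Gene-level FPKM also joins the isoforms of a gene, such as the membrane-bound and soluble forms of LIFR.

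The rest of the pathway was largely expressed. Beyond the 10 genes, 52 of 53 listed pathway genes were matched and 39 were detected, or 75%. The share was 39.4% over all genes in the table and 50.6% over RefSeq protein-coding genes. Adaptors that link gp130 to other branches were all detected, 5 of 5. The adaptor gene Shc1 was at 61.9 and 56.8, Ptpn11, the phosphatase SHP2 that joins gp130 to the ERK branch, at 13.2 and 13.7, and Gab1 at 12.7 and 13.2. The lowest were Grb2 at 7.60 and 6.91 and the exchange factor gene Sos1 at 1.82 and 1.90. Of 8 genes for PIAS proteins and phosphatases, which limit STAT activity, 7 were detected. Pias2 was at 60.4 and 60.1, Ptpn2, a phosphatase of JAKs and STATs, at 57.3 and 56.5, and Pias4 at 22.3 and 21.2. Pias2 and Ptpn2 exceeded Stat3 and Socs3 in both replicates. The lowest were Pias1 at 4.06 and 3.81 and the leukocyte phosphatase gene Ptprc at 0.0139 and 0.0582.

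Known STAT3 targets ranged from a mean of 0.117 to 114. Of 18 listed, 17 were matched and 13 detected, or 76.5%, against 50.6% of RefSeq protein-coding genes. The detected ones had a median of 12.5, against 12.7 for all detected genes. These counts include Stat3, Socs3, Pim1 and Pim3. Without them 9 of 13 were detected, or 69.2%, and the detected ones had a median of 10.2. Mcl1, a survival factor, was the highest at 112 and 115, followed by Tfcp2l1, a transcription factor of the naive network, at 69.6 and 69.0 and then by Pim3. The lowest were Cish and Myc, the latter at 0.207 and 0.317. Klf4, another LIF-dependent naive factor, was at 13.6 and 11.4, close to Socs3.

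The replicates were nearly equal for most of the 10 genes. Lif had 2.02 and 2.03, Jak2 and Jak1 differed by factors of 1.02 and 1.03, and Lifr, Socs3, Stat3 and Il6st by 1.04, 1.05, 1.05 and 1.06. The PIM genes were further apart, with replicate 1 higher 1.15-fold for Pim3 and 1.13-fold for Pim1, and Socs1 was furthest at 1.31-fold. Genes of all kinds with a mean FPKM from 20 to 50 had a median difference between the replicates of 1.05-fold, and 90% of them were within 1.14-fold. Pim3 was just outside that bound and Pim1 just inside it. At a mean FPKM from 1 to 5 the median difference was 1.12-fold and the 90% bound 1.45-fold, which holds Socs1. On the FPKM + 1 scale none of the 9 detected genes differed past 1.2-fold, against 8.09% of all detected genes.

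**Figure D4:**
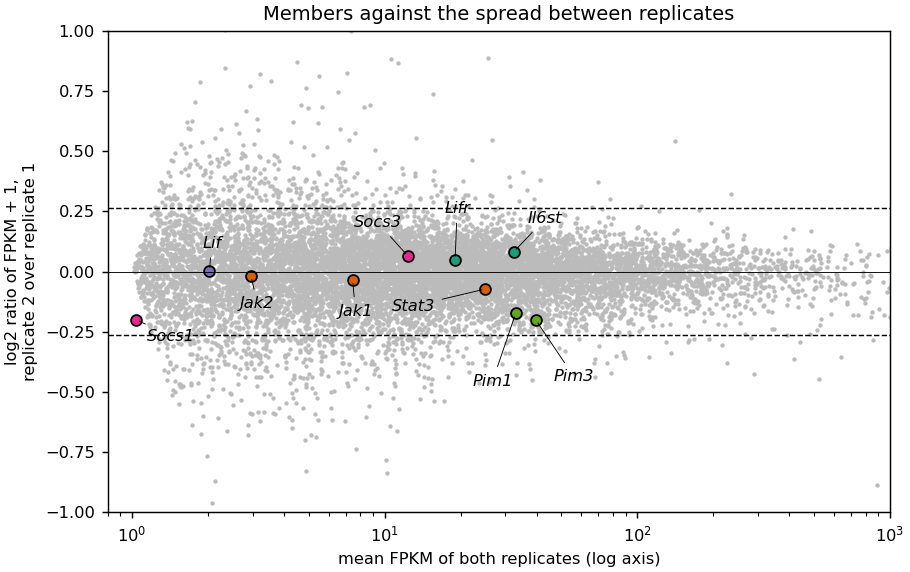
Log2 ratio of FPKM + 1, replicate 2 over replicate 1, against mean FPKM (log axis) for detected genes (grey) and the 10 genes (coloured by role as in the plot of values by replicate); dashed lines mark 1.2-fold, and 165 detected genes lie outside the axes. All 10 genes lie between the dashed lines, with Pim1, Pim3 and Socs1 lowest.

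The small differences between replicates were also read by role. The detected receptor genes of the family, Il6st, Lifr, Il6ra and Il11ra1, were all higher in replicate 2, 4 of 4. All 3 PIM genes and all 4 Janus kinase genes were lower there, as were 5 of 6 STAT genes and 9 of 13 detected STAT3 targets. The detected SOCS genes were split into 3 lower and 3 higher, the cytokines into 2 and 2, and the gp130 adaptors into 2 lower and 3 higher. Among the other pathway genes, 7 of 7 detected PIAS and phosphatase genes were lower in replicate 2 as well. Outside the pathway, so were 7 of 8 naive ES markers. Of all detected genes 51.2% were lower in replicate 2 and 48.8% higher. These counts were made on FPKM without rescaling, which summed to 946498 in replicate 1 and 928174 in replicate 2. They were not repeated after rescaling to TPM, which could turn the smallest differences. The ratio of replicate 2 to replicate 1 was 0.983 for Jak2, 0.986 for Ptpn2 and 0.996 for Pias2. No test of direction between single libraries was possible, and the genes of a list are not replicates. The detected STAT3 targets had a median log2 ratio of -0.07 on the FPKM + 1 scale, and 4 of them belong to the 10 genes. Those 4, Stat3, Socs3, Pim1 and Pim3, are thus counted both here and in their families.

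The library labels were checked against cell markers. All 8 naive ES markers were detected, led by Dppa5a (7123 and 6972) and Pou5f1 (1005 and 947), and none of 6 primitive endoderm markers was, with Pdgfra and Sox17 highest at 0.304 and 0.179, and 0.153 and 0.164. Of 7 primed epiblast markers 4 were detected, led by Dnmt3b (21.5 and 21.6) and Zic2 (5.60 and 5.77), and of 6 trophectoderm markers 3, led by Krt8 (15.4 and 14.3) and Krt18 (2.05 and 1.89). Of 15 feeder fibroblast markers 3 were detected, Vim (261 and 279), Sparc (50.7 and 55.9) and Fn1, and the list summed to 358 and 387. The other 12 were all below the detection rule but summed to 1.07 in replicate 1 and 5.37 in replicate 2. Of these 12, 9 were higher in replicate 2 and 3 lower. Col1a1 was at 0.0136 and 0.552, Col1a2 at 0.0101 and 0.917, and Col3a1 at 0.0481 and 0.809. In replicate 1 Postn, Dcn, Acta2 and S100a4 were listed at 0. Of 6 leukocyte markers 1 was detected, Cd68 (8.79 and 6.88), while Lyz2 stood at 6.94 in replicate 2 and was listed at 0 in the other. Whether fibroblasts or leukocytes were present was not tested. Nor was their part in the values of the 10 genes, such as Lif at 2.02 and 2.03.

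The promoter windows were searched for TTCNNNGAA, the palindromic core bound by STAT factors, which reads the same on both strands. Among the 10 genes Socs3 alone held it, 1 of 10, against 9.55% of the 27025 genes with a window, so the share among them was near the background. The stricter form TTCCNGGAA was in 0 of the 10, against 1.35% of genes. Of the other pathway genes 39 had a window and 4 held the letters, Cish, Icam1, Gab1 and Zfp36. These sites are shown because they include an inhibitor gene that was detected (Socs3) and one that was not (Cish). Capitals mark the match, and the bases come from RefSeq on GRCm38.p6, read 5′ to 3′ on the strand of the gene. In the same order as below they lie at chr11:117969502-117969530 (minus), chr9:107296654-107296683 (plus), chr9:21015888-21015916 (plus), chr8:80880473-80880501 (minus) and chr7:28379227-28379255 (minus).
Socs3: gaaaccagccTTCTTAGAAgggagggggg
Cish: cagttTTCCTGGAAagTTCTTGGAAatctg
Icam1: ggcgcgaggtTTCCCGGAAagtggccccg
Gab1: ccggaggagtTTCAGAGAAagtctgggct
Zfp36: acagcctgacTTCTGCGAAccgacagtcg
The match of Socs3 begins 154 bases before the annotated start, inside the longer RefSeq span of the gene, and that of Icam1 begins 42 bases before its start. Cish has 2 matches at its start and an FPKM of 0.158 and 0.0751, while Icam1, a cell adhesion gene, was at 17.1 and 18.1 and Gab1 was near Socs3. Zfp36, which destabilises cytokine mRNAs, was at 0.475 and 0.802. Genes with the match thus included detected and undetected ones, and windows without it, such as those of Pim1, Pim3 and Stat3, say nothing of sites elsewhere.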

How the data were processed

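RNA levels were measured in 2 replicates of 1 group. The authors deposited 1 table of FPKM per gene and replicate. Per the series' design text, reads that passed quality filters were analysed at gene level with Tophat and Cufflinks, and per the submitters' processing notes CASAVA, TopHat2, Cufflinks and the builds mm10 and GRCm38 were used. Not given in the sources used here are versions, the annotation, the use of strand and any scaling of the libraries. FPKM summed to 946498 and 928174. The depth in reads is unknown, so no interval or floor in reads was computed. Columns were assigned by name. Of 28592 identifiers, 28256 had a symbol once the version suffix was removed, and positions and promoter windows came from RefSeq on GRCm38.p6 by symbol.

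The members, lists and comparisons were chosen with earlier results of these data known. All members are named, with the genes of the receptor, JAK, STAT, SOCS and PIM families. Also named are the 3 highest and 2 lowest of the other pathway lists and the 2 highest of each marker list. Cntf, Klf4, Icam1, Gab1, Zfp36, Lyz2, the collagen genes, the fibroblast markers at 0 and overlapping genes were named after their values were seen. No gene was named for a like pattern, since 2 libraries of 1 group give none. A few genes of these lists are not reported here. Differences between genes are of log2(FPKM + 1) within a replicate, which understates those of low genes. The ratio procedure was tested on simulated data. Alternatives were the pseudocount, the detection limit, rescaling to TPM, centring, no filter, a stricter motif and leaving out each replicate. Python 3.11.15, pandas 2.3.3 and NumPy 2.4.6 were used.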

Additional observations from a re-analysis of the deposited data

How the results depend on the processing

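The 5 differences between genes given in log2 units had the same direction in both replicates. A change of pseudocount or rescaling to TPM cannot turn a direction within a replicate, so these alternatives could change the size only. Smaller pseudocounts moved 4 of the 5 by more than their SD. Leaving out a replicate turned other orders, such as Pim1 over Il6st, with 35.0 and 31.4 in replicate 1 and 30.9 and 33.3 in replicate 2. With pseudocounts of 0.1 and 0.01, Il6st over Lifr was 0.77 and 0.77, Lifr over Lif 3.17 and 3.22, Jak1 over Jak2 1.31 and 1.33, and Socs3 over Socs1 3.46 and 3.57, all in log2 units. Rescaling to TPM gave 1.11 for Jak1 over Jak2. At a detection limit of 5, 25 of the other pathway genes were detected instead of 39. The stricter motif TTCCNGGAA was found in 0 of the 10 genes, against 1.35% of all genes with a window. In replicate 1 alone all 10 genes reached an FPKM of 1. Rescaling to TPM raised the 10 levels by factors of 1.07, with no change of order. No paired analysis was possible because the series has 1 group and no comparison between groups. The precision of low genes such as Socs1 and Lif cannot be stated, because the reads behind them are unknown.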
